A study of Mus musculus with 10 samples.

Results

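The genes described here are the globins and the erythroid genes Alas2 and Slc4a1 in the developing anterior fontanelle of the mouse. The members were chosen by name: the alpha-globin genes Hba-a1, Hba-a2 and Hba-x, the beta-globin genes Hbb-bs, Hbb-bt, Hbb-bh1 and Hbb-y, and Alas2 and Slc4a1. Of these 9 genes, 8 were read from the table of 23080 genes, and Hbb-bh1 was not analysed here. RNA was sequenced from the fontanelle tissue of the skull roof, which held fibrous suture tissue and adjoining bone but not the overlying skin or the brain, at E18.5, shortly before birth. There were 5 control libraries, labelled wild type, and 5 mutant libraries, labelled Wnt1-Cre; Fgfr2 fl/fl, in which both Fgfr2 alleles are floxed and Cre acts in cells of the neural crest. The strain and sex were not given in the labels. The study's text describes pairs of control and mutant littermates, but the labels state neither which libraries share a litter nor that each came from a separate embryo, so the p-values measure only the spread between these libraries.

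The totals ran from 20774667 to 28515434 counts per library, of which between 18.6% and 33.5% fell on CT010467.1, an rRNA locus. Fgfr2, the gene floxed in the mutants, stood at 199 ± 21.6 CPM (counts scaled to a common library size; SD, n = 5) in the control libraries and at 318 ± 32.7 CPM (SD, n = 5) in the mutant libraries, with a log2 fold change of 0.67 (adjusted p = 0.0487, edgeR quasi-likelihood test with Benjamini-Hochberg adjustment). This total count went against what the genotype label would give for a deleted gene, although reads outside the deleted part cannot check it. The groups are therefore called the libraries labelled control and mutant, or control-labelled and mutant-labelled libraries.

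Haemoglobin carries oxygen in red cells as a tetramer of alpha-like and beta-like globin chains, each holding a haem group. Mouse embryos first make primitive red cells with embryonic globins (Hba-x, Hbb-y and Hbb-bh1), and later definitive red cells from the fetal liver, which use the adult-type genes Hba-a1, Hba-a2, Hbb-bs and Hbb-bt. Alas2 is the erythroid form of the first enzyme of haem synthesis, and Slc4a1 encodes band 3, the anion exchanger of the red cell membrane. Young red cells without a nucleus (reticulocytes) still hold globin mRNA, while precursors with a nucleus also hold the mRNA of the erythroid transcription factors. Red cells do not derive from the neural crest. In bulk RNA, fewer cells of a type and less RNA per cell cannot be told apart.

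The alpha-globin genes lie together on chromosome 11 on the plus strand (GRCm38, the assembly that mm10 stands for): Hba-x at chr11:32276400-32278116, Hba-a1 at chr11:32283511-32284465 and Hba-a2 at chr11:32296489-32297298. The beta-globin genes lie together on chromosome 7 on the minus strand: Hbb-bt at chr7:103812524-103813996, Hbb-bs at chr7:103826534-103828096 and Hbb-y at chr7:103851749-103853216. Alas2 is on chromosome X at chrX:150547375-150570638 (plus strand), and Slc4a1 on chromosome 11 at chr11:102348824-102366203 (minus strand). All these spans are whole gene bodies, and the values count reads assigned to each gene's transcripts.

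The stretches before the RefSeq starts of 7 members are shown as a description of sequence. Their part in the levels of these genes was not tested. Each line gives the 120 bases before the RefSeq start (GRCm38.p6), 5′ to 3′ on the gene's strand. Capitals mark every match on either strand to the words searched: CACCC, as in the boxes that Klf1 binds; CCAAT, as in the box of that name; GATAA, as in the sites of Gata1; and TATAAA with its variants TATAAG and also CATAAA. Overlapping matches run together in capitals. The words TATAAG and CATAAA were added after the stretches had been read.
Hba-a1: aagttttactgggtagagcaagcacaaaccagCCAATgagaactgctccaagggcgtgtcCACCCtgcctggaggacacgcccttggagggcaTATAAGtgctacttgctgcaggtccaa
Hba-a2: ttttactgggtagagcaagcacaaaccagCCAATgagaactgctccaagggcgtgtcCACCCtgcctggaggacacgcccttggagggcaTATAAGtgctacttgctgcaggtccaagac
Hba-x: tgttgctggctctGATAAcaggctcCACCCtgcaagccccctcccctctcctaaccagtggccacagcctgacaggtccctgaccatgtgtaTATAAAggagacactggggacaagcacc
Hbb-bs: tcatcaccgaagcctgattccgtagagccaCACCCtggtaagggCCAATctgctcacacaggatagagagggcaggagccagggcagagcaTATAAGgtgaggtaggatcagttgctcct
Hbb-bt: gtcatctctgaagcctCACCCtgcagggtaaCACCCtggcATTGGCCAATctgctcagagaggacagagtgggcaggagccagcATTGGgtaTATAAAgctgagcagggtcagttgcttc
Hbb-y: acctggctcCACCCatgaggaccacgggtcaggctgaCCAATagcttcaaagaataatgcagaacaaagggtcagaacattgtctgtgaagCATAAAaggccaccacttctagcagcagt
Alas2: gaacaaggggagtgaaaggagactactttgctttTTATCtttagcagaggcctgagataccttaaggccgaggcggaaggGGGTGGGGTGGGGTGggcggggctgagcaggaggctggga

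The RefSeq starts differ from those of the gene spans given above, which are from GENCODE: the stretches of Hba-a1, Hba-x and Hbb-bs lie wholly inside the GENCODE spans, and those of the other 4 genes overlap one end of theirs. The stretches lie at chr11:32283552-32283671 (Hba-a1), chr11:32296372-32296491 (Hba-a2), chr11:32276480-32276599 (Hba-x), chr7:103827929-103828048 (Hbb-bs), chr7:103813924-103814043 (Hbb-bt), chr7:103853208-103853327 (Hbb-y) and chrX:150547297-150547416 (Alas2). The 6 globin promoters shared a layout, with a CACCC word 60 to 111 bases before the start and a TATA-like word 27 to 30 bases before it. The TATA-like word was TATAAG in Hba-a1, Hba-a2 and Hbb-bs, TATAAA in Hba-x and Hbb-bt, and CATAAA in Hbb-y. CCAAT was found in 5 of the 7 windows of 300 bases around the starts, in all globin windows except that of Hba-x. Alas2 had no TATA-like word close to its start and held 3 CACCC words on the opposite strand, 40, 35 and 30 bases before it. Over all 32851 windows of this length, 57.5% held CACCC, 37.4% CCAAT, 25.4% GATAA, 13.6% TATAAA, 7.43% TATAAG and 11.9% CATAAA, against 7, 5, 7, 3, 4 and 1 of the 7 member windows. The windows of Hba-a1 and Hba-a2 were identical over 297 of 297 bases at an offset of 3 bases, so the 2 copies do not count as separate matches.

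The members differed in level by more than 3 orders of magnitude. Per kilobase of mean coding transcript length, Hbb-bs was highest with a mean of 1254 CPM per kilobase over the 10 libraries (range 758 to 2097). Hba-a1 followed with 595 CPM per kilobase (356 to 1129) and Hba-a2 with 553 CPM per kilobase (386 to 1000.3), and the ranges of these neighbours overlapped. Hbb-bt, the minor adult-type beta gene, stood well below them at 66.6 CPM per kilobase (39.98 to 95.04). Alas2 had 7.06 CPM per kilobase (3.98 to 11.5) and Slc4a1 1.02 CPM per kilobase (0.41 to 1.75), with no overlap between their ranges or with that of Hbb-bt. The embryonic genes Hbb-y (0 to 0.47) and Hba-x (0 to 0.43) were at the bottom and overlapped each other and, at their highest, Slc4a1. On the CPM scale, Hbb-bs ranked 76th, Hba-a1 139th and Hba-a2 217th of the 16267 genes tested. All 6 globins together took 0.0968% to 0.271% of a library's counts.

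The first comparison asked whether the globins and erythroid genes differed between the libraries labelled control and mutant. None of the 6 members that passed the filter on low counts (Hba-a1, Hba-a2, Hbb-bs, Hbb-bt, Alas2 and Slc4a1) differed at an adjusted p under 0.05 in edgeR's quasi-likelihood test, where 3 of all 16267 genes (0.0184%) did. None of the 6 reached an unadjusted p under 0.05, against 7.49% of all genes tested, and DESeq2 and limma voom called none either. Hba-x and Hbb-y were too low to enter this test.

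**Figure D1:**
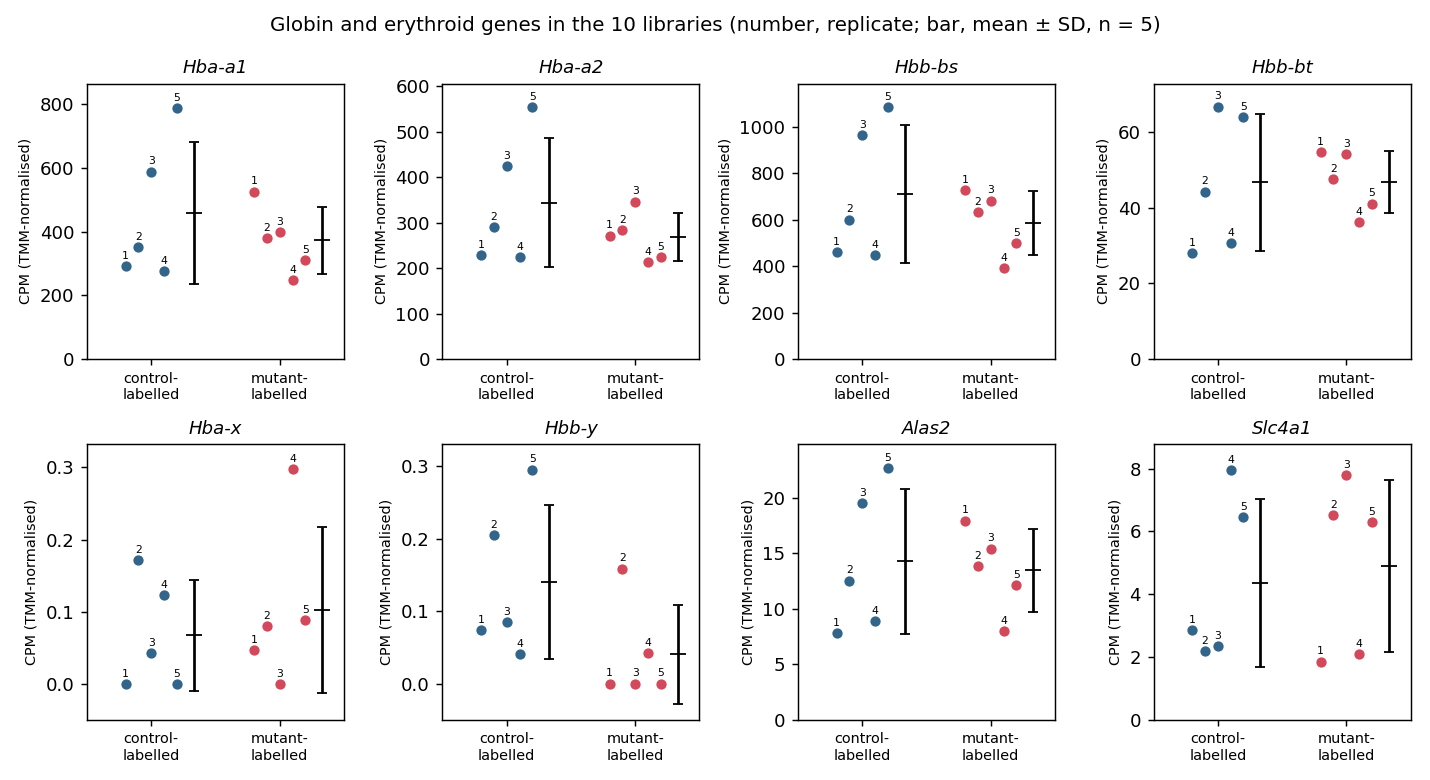
CPM of each member in the 10 libraries; each panel is 1 gene with its own linear axis, points are libraries with their replicate number, and the black bar is the mean ± SD (n = 5) of the group. The groups overlap in every panel, and replicates 3 and 5 of the control-labelled libraries lie highest for the 4 adult-type globins and Alas2.

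Hbb-bs, the major adult-type beta gene, was at 459, 601, 966, 447 and 1085 CPM in control-labelled replicates 1 to 5. In mutant-labelled replicates 1 to 5 it was at 727, 632, 683, 392 and 499 CPM. The groups overlapped, with the highest 2 values in control-labelled libraries and the lowest in a mutant-labelled one. The log2 fold change of mutant over control was -0.28 (SE 0.263, adjusted p = 0.845, edgeR), with a 95% interval from -0.89 to 0.33.

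Hba-a1, the first adult-type alpha copy, was at 291, 351, 589, 276 and 789 CPM in the control-labelled libraries, and at 526, 379, 398, 249 and 310 CPM in the mutant-labelled ones. Hba-a2, the other alpha copy, was at 229, 289.9, 425, 224 and 554 CPM against 272, 284, 346, 214 and 224 CPM in the same order. For both, control-labelled replicate 5 was highest and mutant-labelled replicate 4 lowest. The log2 fold changes were -0.30 for Hba-a1 (SE 0.297, adjusted p = 0.850, edgeR) and -0.36 for Hba-a2 (SE 0.244, adjusted p = 0.754, edgeR). Their 95% intervals ran from -0.99 to 0.38 and from -0.92 to 0.20.

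Hbb-bt was at 28.1, 44.3, 66.8, 30.7 and 64.0 CPM in the control-labelled libraries and at 54.8, 47.6, 54.3, 36.3 and 41.2 CPM in the mutant-labelled ones. All mutant-labelled values lay inside the control-labelled range. The group means were 46.8 ± 18.1 and 46.8 ± 8.11 CPM (SD, n = 5 each), and the 95% interval of the log2 fold change ran from -0.54 to 0.55.

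Alas2, the haem enzyme, was at 7.81, 12.5, 19.5, 8.90 and 22.7 CPM in the control-labelled libraries and at 18.0, 13.9, 15.4, 7.99 and 12.1 CPM in the mutant-labelled ones. Its lowest and its highest value were both control-labelled. The log2 fold change was -0.08 (SE 0.299, adjusted p = 0.969, edgeR), with a 95% interval from -0.77 to 0.61. Alas2 shares exon bases with Apex2 and Mir3620 on the opposite strand, and whether the counting used the strand was not given in the sources used here. Apex2, whose levels were 5.17 ± 0.837 and 5.33 ± 0.740 CPM (SD, n = 5 each), varied less.

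Slc4a1, the band 3 gene, was at 2.85, 2.19, 2.34, 7.96 and 6.46 CPM in the control-labelled libraries and at 1.86, 6.51, 7.78, 2.08 and 6.31 CPM in the mutant-labelled ones. Each group held both low and high libraries, with nothing between 2.85 and 6.31 CPM. The log2 fold change of 0.18 (SE 0.477, adjusted p = 0.955, edgeR) had a 95% interval from -0.92 to 1.28, the widest of the 6 members.

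The two-sided exact permutation test over all groupings of the libraries into 5 and 5, whose smallest possible p is 0.00794, gave p = 0.548 for Hba-a1, 0.317 for Hba-a2, 0.508 for Hbb-bs, 0.778 for Hbb-bt, 0.960 for Alas2 and 0.960 for Slc4a1. The median log2 fold change of the 4 adult-type globins was -0.29 (-0.04 without control-labelled replicate 5), beside 0.00 for all genes tested, and 3 of the 4 had a fitted value below 0, beside 49.7% of all genes. These 4 genes varied together between libraries, so their values are not independent.

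**Figure D2:**
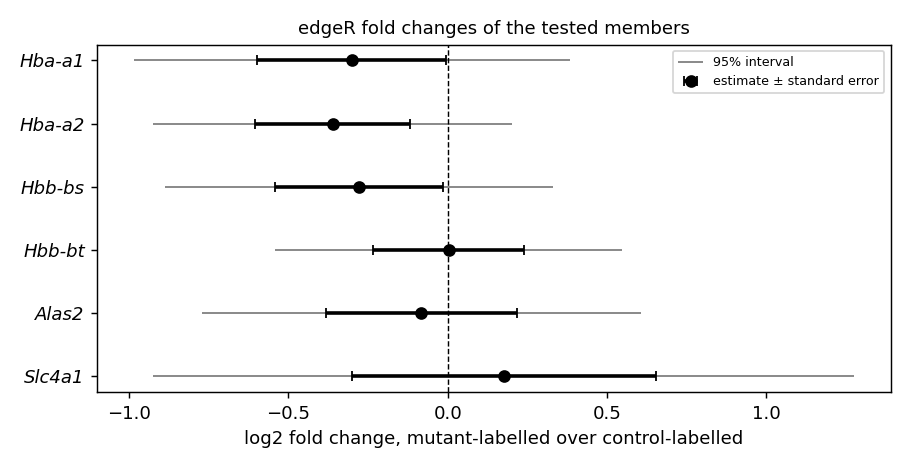
Fitted log2 fold change of mutant-labelled over control-labelled libraries for the 6 tested members; dots and thick bars are the estimate ± SE, thin bars the 95% interval from edgeR (n = 5 each). Every 95% interval crosses 0, from -0.89 to 0.33 for Hbb-bs and from -0.92 to 1.28 for Slc4a1.

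The embryonic globins were near the limit of counting. Hba-x, the embryonic alpha-like gene, had 0, 5, 1, 3 and 0 counts in control-labelled replicates 1 to 5 and 1, 2, 0, 7 and 2 counts in the mutant-labelled ones. Hbb-y, an embryonic beta-like gene, had 2, 6, 2, 1 and 7 counts in the control-labelled libraries and 0, 4, 0, 1 and 0 counts in the mutant-labelled ones. Hba-x thus summed to 9 and 12 counts, and Hbb-y to 18 and 5 counts. All 3 libraries with no Hbb-y count were mutant-labelled, yet the groups overlapped, and the two-sided exact permutation test gave p = 0.0635 for Hbb-y (n = 5 each) and 0.571 for Hba-x. With no filter on low counts, edgeR gave Hbb-y an adjusted p of 0.756. In the 3 libraries at 0, 3 counts, the limit that a count of 0 allows, would be 0.128 to 0.139 CPM, which is within the range of the control-labelled libraries (0.0408 to 0.295 CPM).

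The 2 embryonic genes made up 44 of 343823 globin counts, or 0.0128% (exact Clopper-Pearson 95% interval 0.0093% to 0.0172%). They were 27 of 195920 globin counts in the control-labelled libraries and 17 of 147903 in the mutant-labelled ones. Between libraries the share ran from 0, in mutant-labelled replicate 3, to 0.0382%, in mutant-labelled replicate 4. These intervals cover counting error only. Almost all counts of the 6 globins read here were thus of adult-type genes.

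Within the adult-type globins, the copies were compared as shares of the same library, which no scaling between libraries can move. Hbb-bt made up 5.77%, 6.87%, 6.47%, 6.41% and 5.57% of Hbb-bs plus Hbb-bt in control-labelled replicates 1 to 5, and 7.01%, 7.01%, 7.36%, 8.47% and 7.61% in mutant-labelled replicates 1 to 5. The means were 6.22% ± 0.535 and 7.49% ± 0.602 (SD, n = 5 each), and the groups did not overlap. For single genes, 242 of the 16267 tested (1.49%) had groups without overlap in CPM. The gap between the nearest libraries was within counting error, since the exact 95% interval was 6.51% to 7.24% for control-labelled replicate 2 and 6.63% to 7.40% for mutant-labelled replicate 2. No test was made on this share, which is 1 of 8 ratios computed between members. The share is also uncertain in itself, because 65.8% of the 50-base stretches of the Hbb-bs transcript occur in Hbb-bt too (58.3% of those of Hbb-bt), so many 50-base reads fit both copies and had to be divided between them or left out in the authors' counting.

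Hba-a1 made up 56.5% ± 1.77 of Hba-a1 plus Hba-a2 in the control-labelled libraries and 57.7% ± 5.04 in the mutant-labelled ones (SD, n = 5 each). The mutant-labelled libraries spread from 53.5% to 65.9%, with mutant-labelled replicate 1 at the top, around the control-labelled range of 54.8% to 58.7%. The alpha copies share 67.5% of the 50-base stretches of Hba-a1 and 86.9% of those of Hba-a2, so this share is uncertain too. The sum over the alpha genes was 1.05 ± 0.074 times that over the beta genes in the control-labelled libraries and 1.02 ± 0.040 times in the mutant-labelled ones (SD, n = 5 each), with overlapping ranges (0.982 to 1.17 and 0.976 to 1.08). This ratio does not depend on how shared reads were divided within a pair, but it would on any that were left out.

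**Figure D3:**
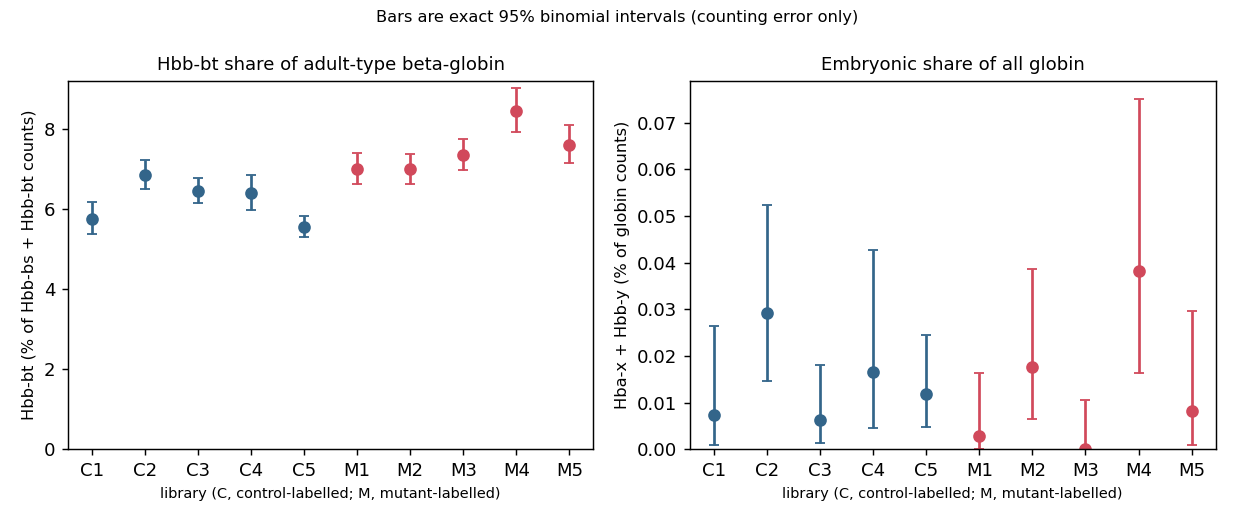
Left, Hbb-bt as a percent of Hbb-bs plus Hbb-bt counts in each library; right, Hba-x plus Hbb-y as a percent of all globin counts; bars are exact 95% binomial intervals. The Hbb-bt share is 5.57% to 6.87% in the control-labelled libraries and 7.01% to 8.47% in the mutant-labelled ones, while the embryonic share stays at or below 0.0382%.

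The members varied much more between libraries than most genes. Across all 10 libraries the coefficient of variation of CPM was 40.98% for Hba-a1, 35.6% for Hba-a2, 35.0% for Hbb-bs, 28.3% for Hbb-bt, 36.3% for Alas2 and 55.4% for Slc4a1, beside a median of 12.1% over all genes tested. These values lay between the 79.4th (Hbb-bt) and the 93.6th (Slc4a1) percentile of the tested genes. Counting error alone would give 0.797% for Hbb-bs and 9.44% for Slc4a1. From the lowest to the highest library, Hbb-bs differed 2.77-fold, Hba-a1 3.17-fold and Slc4a1 4.29-fold. For Hbb-bs the coefficient of variation was 41.6% among the control-labelled and 23.6% among the mutant-labelled libraries. This difference in spread was not tested.

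Over the 10 libraries, the levels of the adult-type globins and Alas2 went up and down together. Log2 CPM of Hba-a1 correlated with that of Hbb-bs with Pearson's r = 0.98 and Spearman's rho = 1.00 (permutation p = 1e-05 for each, the smallest that the resamples can give; adjusted p = 6e-05 for each). For Alas2, r was 0.96 (permutation p = 2e-05, adjusted p = 6e-05) and rho 0.96 (permutation p = 5e-05, adjusted p = 0.00015). For Hba-a2 r was 0.95 and for Hbb-bt 0.91, with adjusted permutation p of 0.00014 and 0.000765. Their rho values were 0.90 and 0.94, with adjusted permutation p of 0.00133 and 0.00064. Benjamini-Hochberg adjustment was over 6 relations to Hbb-bs. Without the 2 libraries farthest from the median Hbb-bs level (control-labelled replicate 5 and mutant-labelled replicate 4), r was 0.97 for Hba-a1, 0.92 for Hba-a2, 0.95 for Hbb-bt and 0.93 for Alas2. After centring within each group, the values were 0.98, 0.95, 0.97 and 0.99. Hbb-bs and Hbb-bt share most of their sequence, but Alas2 shares no 50-base stretch with a globin.

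Among the other tested genes ranked by r with Hbb-bs, Hba-a1 was 1st, Alas2 2nd, Hba-a2 3rd and Hbb-bt 4th, while Slc4a1, whose levels fell into 2 clusters, was 7260th. The most alike genes outside the members were Galnt15 (r = 0.89), Col4a6 (0.87), Plekha6 (0.86), Mapk4 (0.86), Lrrc57 (0.86), Plekhb1 (0.85), Gm35315 (0.84), Pcp4l1 (0.84), Snrpa (0.83) and Gpr39 (0.83), given as a description over 10 libraries with no test. None of these 10 is in an erythroid list used here. The embryonic genes gave r of -0.52 for Hba-x (adjusted permutation p = 0.146) and 0.32 for Hbb-y (0.370), on 21 and 23 counts in all.

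Per 1000 CPM of Hbb-bs, Alas2 was at 19.8 ± 1.604 CPM in the control-labelled libraries and at 22.8 ± 1.77 CPM in the mutant-labelled ones (SD, n = 5 each). The ranges, 17.0 to 20.9 and 20.4 to 24.7, overlapped at their edges. The highest library differed 1.45-fold from the lowest, while Alas2 itself differed 2.90-fold.

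**Figure D4:**
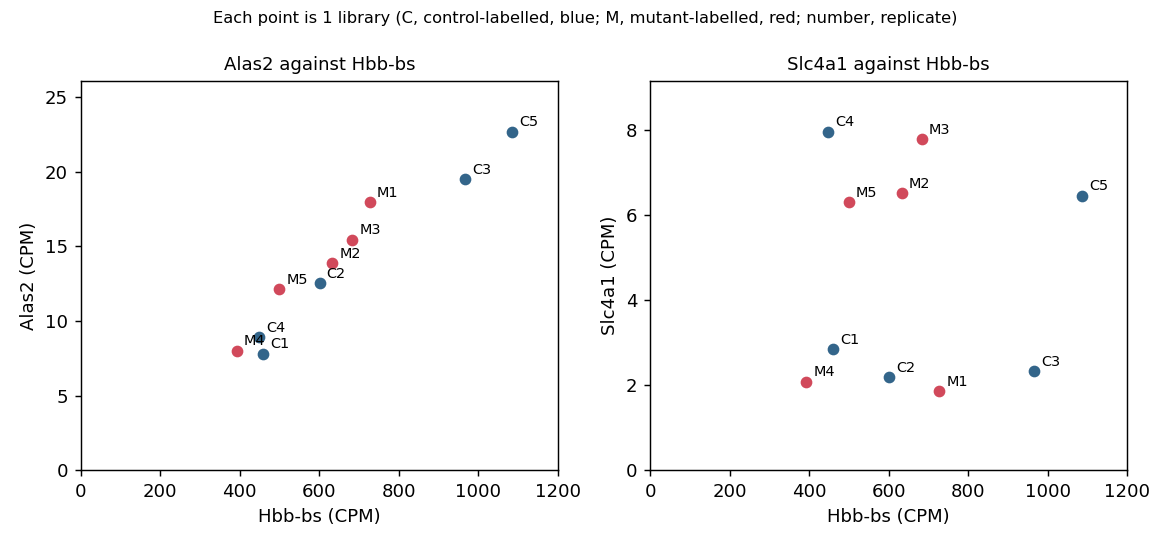
Alas2 (left) and Slc4a1 (right) against Hbb-bs in CPM on linear axes from 0; each point is 1 library, C for control-labelled and M for mutant-labelled with its replicate number. Alas2 lies along a line with Hbb-bs (r = 0.96 on the log2 scale), whereas Slc4a1 lies in 2 bands, at 1.86 to 2.85 and 6.31 to 7.96 CPM, each of which spans low and high Hbb-bs.

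Slc4a1 followed a different pattern. Of the 10 libraries, 5 had 40 to 77 counts of Slc4a1 and the other 5 (control-labelled replicates 4 and 5, mutant-labelled replicates 2, 3 and 5) had 143 to 195. The exact Poisson 95% intervals of the nearest libraries, 60.8 to 96.2 and 121 to 168 counts, did not touch. These intervals were set after the gap had been seen and cover counting error only. With the levels in 2 clusters of 5 libraries, too few for a correlation within each, no coefficient with Hbb-bs is given. The rank by r given above is a description only, and the relation was not tested. Side by side, control-labelled replicate 4 had the highest Slc4a1 (7.96 CPM) with Hbb-bs at 447 CPM, while control-labelled replicate 3 had Slc4a1 at 2.34 CPM with Hbb-bs at 966 CPM. Per 1000 CPM of Hbb-bs, Slc4a1 ran from 2.42 to 17.8 CPM.

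Some other erythroid genes had the same 5 highest libraries as Slc4a1. This was looked for after the Slc4a1 values had been seen and is a description. Of the 69 other tested genes in the erythroid lists, 6 did so (8.70%), among them Gata1 and Klf1 (2 of the 12 tested erythroid transcription factors), Hemgn (hemogen, an erythroid nuclear protein) and Car2 (a carbonic anhydrase of red cells and other cells). Over all tested genes the share was 36 of 16267 (0.221%), with Slc4a1 itself not among the 36, and none of the 83 tested genes in the lists for other cell types did so. Epb42 and Kel, a membrane protein and a blood group antigen, had the same 5 highest libraries as well but were too low to be tested. Scaling alone put control-labelled replicate 5 above control-labelled replicate 2 for both, with 6 against 7 counts of Kel and 3 against 3 of Epb42.

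Hemgn was at 1.39 and 0.72 CPM in control-labelled replicates 4 and 5 and at 0.11, 0.17 and 0.13 CPM in the other 3. In mutant-labelled replicates 2, 3 and 5 it was at 1.03, 1.20 and 1.01 CPM, and in replicates 1 and 4 at 0.23 and 0.38 CPM. Klf1 was at 0.76 to 1.11 CPM in the 5 high libraries and at 0.13 to 0.38 CPM in the others. These are low levels, with 3 to 34 counts of Hemgn and 3 to 28 of Klf1 per library. Gata1 showed no clear gap, with 13 to 17 counts in the 5 high libraries and 1 to 12 in the others. None of the 6 genes had groups that differed in edgeR's test, with adjusted p from 0.826 (Klf1) to 0.976 (Car2).

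**Figure D5:**
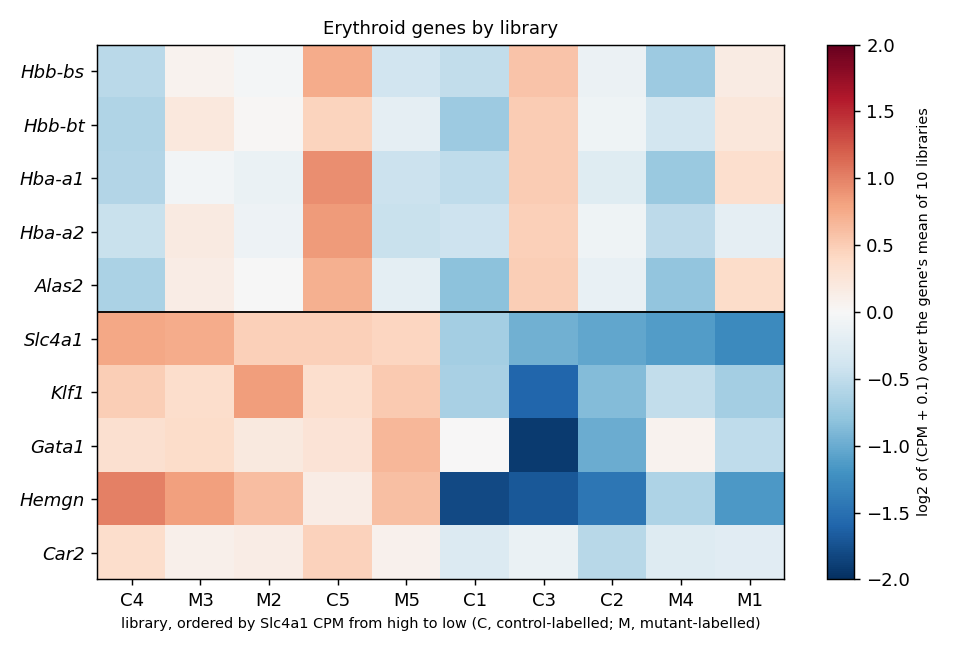
Level of 10 erythroid genes in each library as log2 of (CPM + 0.1) over the gene's mean of the 10 libraries, with libraries ordered by Slc4a1 from high to low; genes above the line are the adult-type globins and Alas2, and those below it Slc4a1 and 4 of the tested genes with the same 5 highest libraries. The upper rows are highest in control-labelled replicates 5 and 3 (C5, C3). The 4 genes below Slc4a1 were picked for sharing its 5 highest libraries (C4, M3, M2, C5 and M5), so that likeness was fixed by the choice.

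The other genes of the erythroid pathway were counted by role, and none of the 69 tested differed at an adjusted p under 0.05 in edgeR's test, while 9 had an unadjusted p under 0.05, which 7.49% of all genes tested reached. Of the 9 genes of haem synthesis, Alas2 included, 4 had a fitted log2 fold change above 0 and 5 below, with a median of -0.02. Alad, which makes porphobilinogen in the second step of the pathway, was the only one at an unadjusted p under 0.05. It was at 19.6 ± 1.44 CPM (17.6 to 20.9) in the control-labelled libraries and at 15.3 ± 1.17 CPM (13.7 to 17.0) in the mutant-labelled ones (SD, n = 5 each), so the groups did not overlap, as in 3 of the 69 genes here and in 1.49% of all genes tested. Its log2 fold change was -0.35 (SE 0.073, unadjusted p = 0.000434, adjusted p = 0.196, edgeR), the DESeq2 Wald test called it, and it was named after its values were seen. The most abundant of the list, Fech (which inserts the iron), Cpox and Alas1 (the housekeeping partner of Alas2), had log2 fold changes of -0.02, 0.09 and 0.03, with adjusted p of 0.816 or more in edgeR.

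Of the 12 genes of iron and haem transport, 2 had a fitted value above 0 and 10 below, with a median log2 fold change of -0.08. Ftl1 and Fth1, the ferritin chains that store iron, were at 595 ± 42.6 against 559 ± 42.0 CPM and at 376 ± 45.0 against 333 ± 27.6 CPM (SD, n = 5 each). Tfrc, the transferrin receptor, was at 36.7 ± 5.43 against 32.4 ± 5.47 CPM, and adjusted p in edgeR was 0.669 or more for these 3. Tfr2 (log2 fold change -0.40) and Slc48a1 (-0.14) were the ones at an unadjusted p under 0.05, where 3.82% of all genes tested were lower in the mutant-labelled libraries and 3.68% higher. Most of these genes are used by many cell types.

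Of the 16 tested genes of the red cell membrane and its skeleton other than Slc4a1, 12 had a fitted value above 0 and 4 below, with a median log2 fold change of 0.12. With Slc4a1 the median was 0.13, and it ran from 0.05 without mutant-labelled replicate 2 to 0.32 without control-labelled replicate 4. Ermap, an erythroid membrane protein (log2 fold change 0.66, adjusted p = 0.623), and Aqp1, a water channel that endothelium also has (-0.21, adjusted p = 0.552, edgeR), were at an unadjusted p under 0.05. Epb41 and Slc2a1, the other abundant members of this list, had values of 0.00 and -0.09. Of the 12 tested erythroid transcription factors, 10 had a fitted value above 0 and the median was 0.12 (0.20 without control-labelled replicate 2 and 0.08 without control-labelled replicate 3). Myb, a factor of blood progenitors, and Nfe2, an erythroid and megakaryocyte factor, were at an unadjusted p under 0.05, with log2 fold changes of 0.98 (adjusted p = 0.454) and 0.75 (adjusted p = 0.522, edgeR). Myb was highest in mutant-labelled replicate 3 (7.78 CPM), without which its log2 fold change was 0.66. The abundant factors Ldb1, Zbtb7a and Sox6, which other tissues express too, had values of 0.04, -0.02 and 0.10.

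The 7 tested genes of globin stability and red cell enzymes (median log2 fold change -0.04) held none at an unadjusted p under 0.05. Prdx2, Cat and Eif2ak1, a peroxiredoxin, catalase and the haem-regulated kinase, had values of -0.01, -0.06 and 0.02. Of the 14 tested genes of terminal maturation (median 0.04), Cd24a, which neurons also express (0.78, adjusted p = 0.634), and Tent5c (-0.31, adjusted p = 0.634, edgeR) were at an unadjusted p under 0.05, and Bnip3l, which clears mitochondria, and Xpo7 had values of -0.03 and -0.02. Cd24a was at 94.4 CPM in mutant-labelled replicate 2, where the neuron genes were also highest (summed level 551 CPM), and at 25.2 to 40.3 CPM in the other mutant-labelled libraries. Without that library its log2 fold change was 0.33. Of the other globin genes, Cygb, the cytoglobin of fibroblasts, was tested, with 32.9 ± 3.64 against 28.2 ± 4.98 CPM (SD, n = 5 each; adjusted p = 0.685, edgeR).

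Markers of other cells were read beside the members. The summed level of 12 neutrophil genes was 39.1 to 109 CPM in the control-labelled and 116 to 205 CPM in the mutant-labelled libraries. All 12 had a fitted value above 0, and 8 were at an unadjusted p under 0.05 (3.68% of all genes tested were so and higher) but none at an adjusted one (lowest adjusted p = 0.316, edgeR), with S100a9 at 25.05 ± 10.8 against 47.5 ± 10.8 CPM. The neutrophil sums did not overlap between the groups, while the sums of the 4 adult-type globins did (978 to 2492 CPM and 891 to 1579 CPM). The 12 endothelial genes summed to 857 to 1072 and 837 to 1036 CPM (median log2 fold change 0.01), and Cdh5, an endothelial cadherin, was at 195 ± 25.8 and 194 ± 19.2 CPM (SD, n = 5 each). Of 12 megakaryocyte and platelet genes, 4 passed the filter (median -0.01), with Pf4 at 15.7 ± 3.33 and 14.3 ± 1.73 CPM. The 12 osteoblast genes, markers of the bone in this tissue, all had fitted values below 0 (median -0.23), 6 at an unadjusted p under 0.05 (3.82% of all genes tested were so and lower) and none at an adjusted one, and Col1a1 was at 66176 ± 4400 and 64003 ± 10054 CPM. The part of these cells in the values of the members was not tested.

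The remaining marker lists held no gene at an adjusted p under 0.05 in edgeR's test either. The medians of the log2 fold changes were -0.06 for 11 macrophage genes, 0.24 for 8 genes of fibrous connective tissue, 0.87 for 10 neuron genes, -0.12 for 9 skeletal muscle genes and 0.24 for 5 epidermis genes. At an unadjusted p under 0.05 were 4 fibrous and 3 neuron genes, all with fitted values above 0, where 3.68% of all genes tested were so and higher. The fibrous median was 0.41 without control-labelled replicate 2, and the epidermis median turned to -0.11 without control-labelled replicate 4. The neuron genes summed to 74.0 to 163 CPM in the control-labelled and 79.6 to 551 CPM in the mutant-labelled libraries. The highest was mutant-labelled replicate 2, the next was at 241 CPM, and without replicate 2 the median log2 fold change of the neuron genes was 0.23. The muscle genes summed to 25.8 to 937 and 27.8 to 981 CPM, and their median ran from -1.52 without mutant-labelled replicate 1 to 1.27 without control-labelled replicate 2.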

How the data were processed

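Total RNA of the anterior fontanelle region was made into stranded libraries and read as single 50-base reads. The authors processed the reads in Partek Flow (mm10 per the submitters' processing notes). The aligner, the counter and the use of strand were not given in the sources used here. The deposited table holds 1 value per gene and library, taken as an expected count from the authors' quantification, since 66.4% of the values are whole numbers, the rest are fractions and the totals differ between libraries, and each gene sums to at least 10 over the libraries. No test of the authors was used.

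The expected counts were rounded to whole numbers and tested with edgeR 4.0.16 (filterByExpr, TMM scaling, quasi-likelihood test, Benjamini-Hochberg over all 16267 genes tested, threshold 0.05) in R 4.3.3. The filter left out 6813 genes. The design had assumed raw counts. CPM were TMM-normalised, and log2 CPM used a prior count of 0.5. Single genes were also tested by two-sided exact permutation, and correlations with 100000 resamples (scipy 1.17.1). Alternatives used DESeq2 1.42.0 and limma 3.58.1. Sums, shares and lists were given without a test. The fit was tested on simulated data. Gene spans and transcript lengths are from GENCODE M21, in which 22296 of 22533 matched symbols had the same span as in the table, and promoters are from RefSeq for 7 of the 8 members.

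The members and lists were chosen with earlier results of these data known. The named genes are all members, Fgfr2, the 3 genes of each erythroid list with the highest mean CPM, any called listed gene and the 10 genes most like Hbb-bs. Others were named after their values were seen. All 20 pairs of libraries of 1 group differed beyond sampling noise (chi-square per degree of freedom 8.14 or more). Single values of some listed genes are not reported here.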

Additional observations from a re-analysis of the deposited data

Results flagged for a closer look

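In 4 of 32 groups of 5 libraries, 1 library stood apart by Dixon's test at the 95% level, where chance gives about 1 in 20 groups. Alas2 per 1000 CPM of Hbb-bs was 17.0 in control-labelled replicate 1 and 19.9 to 20.9 in the other 4 control-labelled libraries. Slc4a1 per 1000 CPM of Hbb-bs was 17.8 in control-labelled replicate 4 and 2.42 to 6.21 in the others, as this library had the highest Slc4a1 and the second lowest Hbb-bs of all 10. Hbb-y was at 0.159 CPM in mutant-labelled replicate 2 and at 0 to 0.0425 CPM in the others, on 4 counts against at most 1. Hba-x was 0.0643% of the alpha-globin counts in mutant-labelled replicate 4 and 0 to 0.0165% in the others, on 7 counts.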

How the results depend on the processing

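No member passed an adjusted p of 0.05 under any alternative tried. Of 114 fitted log2 fold changes of members under alternatives, 103 kept their sign and 11 did not, and the lowest adjusted p was 0.659. The sign of Hbb-bt turned with scaling by library size alone (-0.0476), and that of Alas2 with limma voom (0.0668). With 1 library left out, Hbb-bt ranged from -0.13 to 0.18 and Alas2 from -0.23 to 0.15. Slc4a1 ranged from -0.0384, without mutant-labelled replicate 3, to 0.51. The values of Hba-a1, Hba-a2 and Hbb-bs stayed below 0 in every alternative run (Hba-a1 from -0.45 to -0.010, Hba-a2 from -0.48 to -0.12 and Hbb-bs from -0.41 to -0.07), each nearest to 0 without control-labelled replicate 5. The cause of these turns was not tested.

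The count of 3 genes called over all genes was 1 with scaling by library size alone, without the ribosomal RNA gene or without the globins in the scaling, and 95 with the DESeq2 Wald test. It was between 1 and 6 with 1 library left out: 6 without mutant-labelled replicate 2, and 1 without any of control-labelled replicates 3, 4 and 5 or mutant-labelled replicates 1, 3, 4 and 5. The DESeq2 Wald test called 8 listed genes (Alad, S100a8, Retnlg, Ibsp, Alpl, Dmp1, Tnmd and Matn4), where edgeR called none. With 1 library left out, the list medians close to 0 turned sign for haem synthesis (-0.04 to 0.03), red cell enzymes (-0.08 to 0.05), megakaryocytes (-0.10 to 0.21), macrophages (-0.14 to 0.02) and endothelium (-0.04 to 0.05), that of terminal maturation ran from 0.00 to 0.07, and that of iron and haem transport was -0.03 without mutant-labelled replicate 4. With the replicate number as a block the count was 1. No pairing by number was seen: same-numbered libraries correlated at -0.20, 0.14, -0.21, 0.03 and -0.14. No control-labelled library was closest to its own number. Large differences between libraries in other genes, such as those of muscle, could hide a shared litter, so this cannot exclude pairing.

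Per kilobase, the Hbb-bt share was 4.65% and 5.63%, the Hba-a1 share 50.8% and 52.0%, and the alpha to beta ratio 0.881 and 0.852 in the control-labelled and mutant-labelled libraries. Without control-labelled replicate 1, the r of Hba-x with Hbb-bs was -0.78 (adjusted exact permutation p = 0.0171), and over all libraries left out in turn it ran from -0.78 to -0.36. On 21 counts in all it is read as no finding. Depth limits the embryonic globins, which had at most 7 counts per library.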
